A study of Mus musculus with 2 samples.

Results

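Aminoacyl-tRNA synthetases were examined in the gastrocnemius, a mixed-fiber calf muscle, of male mice 25 weeks old. They were taken as the genes whose symbol is a letter followed by ars, ars1, or ars2, together with Eprs, Farsa, and Farsb, and 37 of the 21362 genes that a probe could be named for met this rule. Enzymes with a symbol ending in ars2 (17 genes) were set as mitochondrial and the other 20 as cytosolic. FOXO1-Tg mice overexpress the transcription factor FOXO1 in skeletal muscle, and RNA of 5 of them was pooled and hybridized to 1 Agilent array. RNA of 6 age-matched wild-type controls was pooled and hybridized to the other. The promoter of the transgene and the strain are not given in the sources used here. With 1 array per pool there was no replicate, so differences between mice cannot be seen and no p-value is given. The errors below are the scanner's own and cover the array measurement only. For most members they were about 0.20 on the log2 scale, so passing the error is close to passing a fixed limit.

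Each synthetase attaches a particular amino acid to its transfer RNAs, which then carry it to the ribosome. Cells keep a cytosolic set for proteins encoded in the nucleus and a mitochondrial set, also encoded in the nucleus, for the respiratory chain subunits that mitochondria make themselves. Several cytosolic enzymes are held together in the multi-synthetase complex. Many cytosolic synthetase genes are known targets of ATF4, the transcription factor of the amino acid response, which also raises genes of amino acid synthesis.

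Values are the processed signals of the scanner software, an intensity without scaling between arrays. The log2 ratio is FOXO1-Tg over wild-type after each signal was divided by the 75th percentile of its own array, a signal of 844 for the FOXO1-Tg pool and 771 for the wild-type pool. A gene can therefore have a somewhat higher signal in the FOXO1-Tg pool and still a ratio below 0. The median log2 ratio over the 16656 detected genes was -0.07, and single ratios are best read against it. Foxo1, the overexpressed gene, had 279457 in the FOXO1-Tg pool and 4540 in the wild-type pool on its brighter probe (log2 ratio 5.81). Its other probe had 3188 in the FOXO1-Tg pool and 2853 in the wild-type pool (log2 ratio 0.03).

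The synthetases as a family differed little between the pools. All 37 genes were detected, 36 of them on both arrays, and their median log2 ratio was -0.13 (quartiles -0.25 and -0.01), against -0.07 over all detected genes (quartiles -0.31 and 0.21). No member was more than 2-fold higher or lower. Among all detected genes 4.2% exceeded 2-fold upward and 3.86% exceeded it downward, shares that come to few genes in a set of 37. With normexp and quantile normalization they were 2.45% and 1.28%. All detected genes were not matched to the members for signal. At 1.5-fold, 1 member was higher, Yars, and none was lower, against 9.18% and 10.8% of all detected genes. These background shares depend on the scaling: genes more than 2-fold higher made up 52.1% of all those past 2-fold, but 62.1% to 68.1% with the other scalings tried. Of the 37 members, 36 lay within 0.5 of the all-gene median on the log2 scale, as did 74.0% of all detected genes. The distance from that median was larger than the scanner error for 10 members (27.0%), 7 of them below and 3 above it, and for 55.9% of all detected genes.

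**Figure D1:**
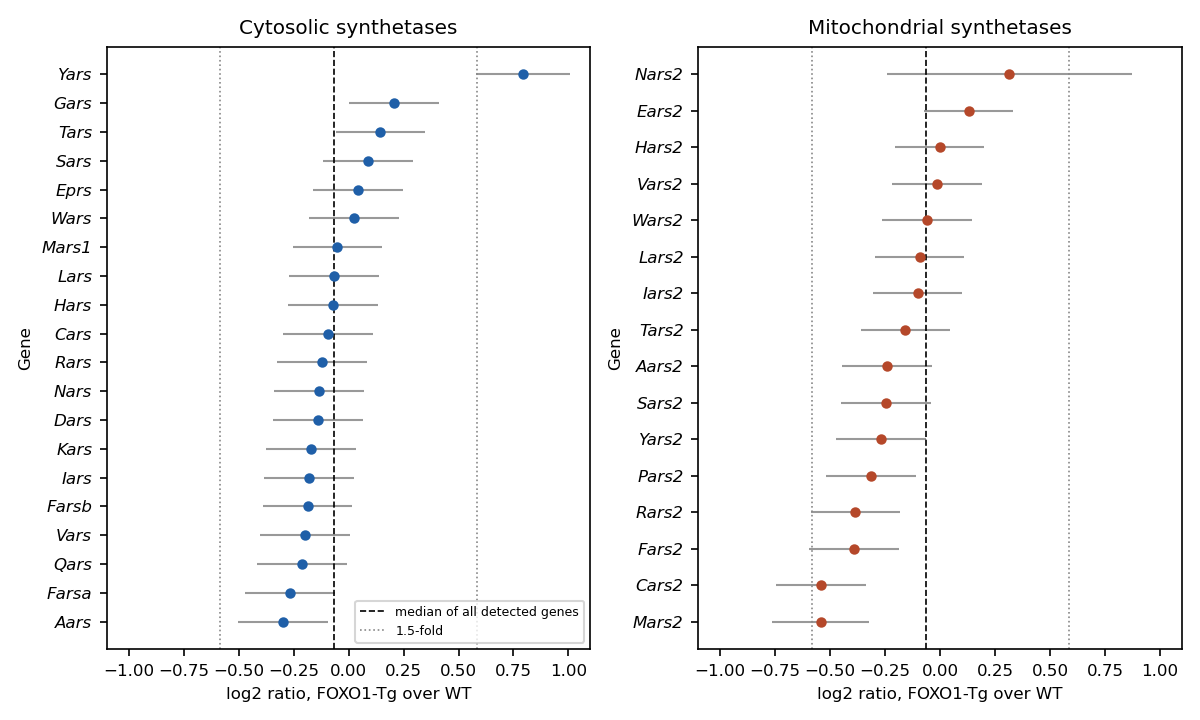
Log2 ratio, FOXO1-Tg over wild-type, of 36 of the 37 synthetases in cytosolic (left) and mitochondrial (right) enzymes. Points are the brightest detected probe of a gene, bars the scanner's own error, the dashed line the median of all detected genes at -0.07, and dotted lines 1.5-fold in either direction. Yars at 0.79 is the one point beyond a dotted line, and Nars2 at 0.32 was detected in the FOXO1-Tg pool only.

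The 20 cytosolic genes were all detected on both arrays and had a median log2 ratio of -0.11. Gars and Kars each serve both compartments from 1 gene and were counted as cytosolic. Gars, which loads glycine, gave 66186 in the FOXO1-Tg pool and 52488 in the wild-type pool. Its log2 ratio was 0.21 (scanner error 0.20). Tars, which loads threonine, had signals of 16094 in the FOXO1-Tg pool and 13306 in the wild-type pool, a log2 ratio of 0.15. Gars, Tars, and Yars were the cytosolic genes that lay above the all-gene median by more than the scanner error. At the other end, Aars, which loads alanine, had 13564 in the FOXO1-Tg pool and 15266 in the wild-type pool, a log2 ratio of -0.30. It was the only cytosolic gene below that median by more than the scanner error. The other 16 cytosolic genes lay between -0.27 (Farsa, the catalytic subunit for phenylalanine) and 0.09 (Sars, which loads serine).

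Yars, which loads tyrosine, had the highest ratio of the family. Its probe gave 155 in the FOXO1-Tg pool and 81.8 in the wild-type pool. These signals differ 1.90-fold as they stand and 1.73-fold after scaling, or by 0.79 on the log2 scale with a scanner error of 0.21. The probe was dim but well above background in both pools, and Yars was read by this probe and 1 spot alone. The size of the difference depended on how the spot was read. The median pixel signal minus the local background was 115.5 in the FOXO1-Tg pool and 83 in the wild-type pool, which is 1.39-fold as it stands and 1.27-fold after the same scaling. With normexp background correction and quantile normalization the log2 ratio was 0.31, which is below 1.5-fold. It stayed between 0.79 and 0.92 with the other alternatives.

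**Figure D2:**
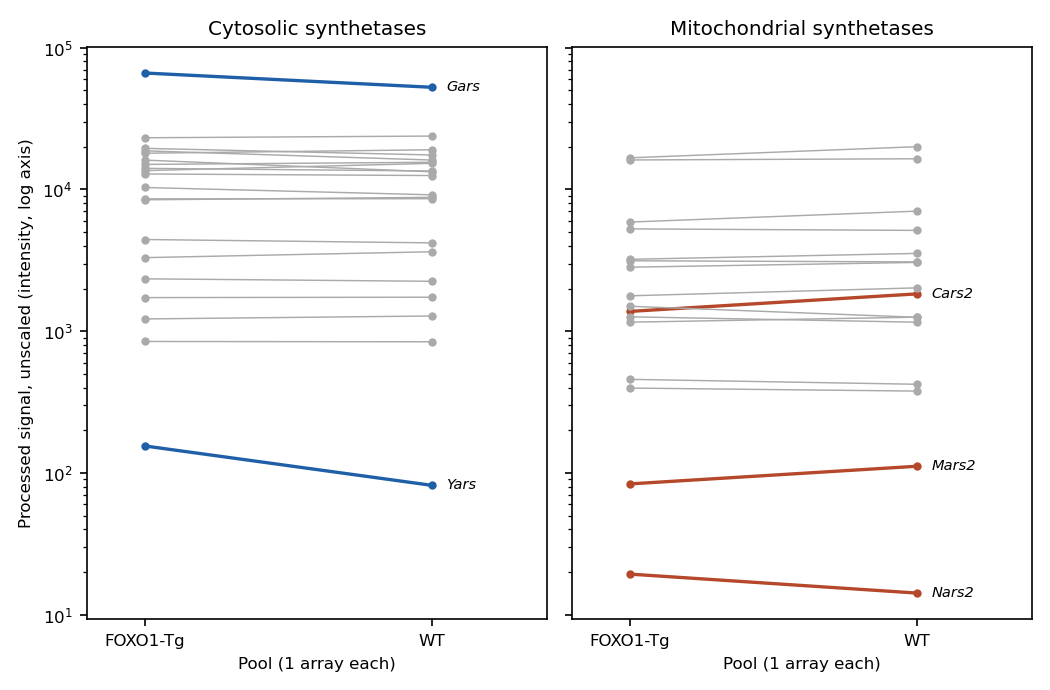
Unscaled processed signals of 36 of the 37 synthetases on a log axis, the FOXO1-Tg pool left of the wild-type pool, with a line for each gene. Named lines are Gars, Yars, Cars2, Mars2, and Nars2; most lines are nearly flat, and Yars and Nars2 have the lowest signals of their panels, at 155 and 19.4 in the FOXO1-Tg pool and 81.8 and 14.2 in the wild-type pool. Heights of different probes are not comparable as amounts of RNA.

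Enzymes of the multi-synthetase complex had nearly uniform ratios. Its 8 synthetases had a median of -0.13, and none of them lay farther from the all-gene median than the scanner error. Qars, which loads glutamine, was lowest with 17991 in the FOXO1-Tg pool and 19032 in the wild-type pool, a log2 ratio of -0.21. Eprs, which loads both glutamate and proline, was highest with 10313 in the FOXO1-Tg pool and 9156 in the wild-type pool, a log2 ratio of 0.04. Between them were Iars (isoleucine) at -0.18, Kars (lysine) at -0.17, Dars (aspartate) at -0.14, Rars (arginine) at -0.12, Lars (leucine) at -0.07, and Mars1 (methionine) at -0.05. The range across the complex was thus little wider than the scanner error of a single ratio. The 12 cytosolic enzymes outside the complex spread more widely, with quartiles of -0.19 and 0.10 and a median of -0.08.

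The scaffold genes of the complex did not share a value. Aimp1 had 37423 in the FOXO1-Tg pool and 35555 in the wild-type pool, a log2 ratio of -0.06. Eef1e1, also called AIMP3, had 3828 in the FOXO1-Tg pool and 3470 in the wild-type pool, a log2 ratio of 0.01. Aimp2 stood apart from the enzymes it binds. Its signal was 257333 in the FOXO1-Tg pool and 120877 in the wild-type pool, a log2 ratio of 0.96, which is past 1.5-fold but not past 2-fold. With 5 other scalings or background corrections it was 1.02 to 1.09, so its side of 2-fold depends on the scaling. Aimp2 was read by 1 probe, and whether that probe reads Aimp2 alone was not tested.

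The cytosolic genes were also divided by their known response to ATF4. The 13 synthetases of the ATF4 list had a median log2 ratio of -0.05, with 7 above and 6 below the all-gene median. The 7 other cytosolic synthetases had a median of -0.17, and all of them were below it, though none by more than the scanner error. Hars, at -0.07, was almost level with it and lay above it with the median over probes. The difference of these medians was not tested. Of the ATF4 list, Yars, Gars, Tars, Sars, Eprs, and Wars had a ratio above 0 in this order, and Aars and Vars were lowest at -0.30 and -0.20. These 6 are 46.2% of the list, beside 42.5% of all detected genes above 0. When the arrays were left unscaled, 9 of the 13 were above 0, but the all-gene median then also rose, to 0.06.

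Promoters of 27 of the 37 genes were found in the RefSeq table of GRCm38.p6, as windows from 250 bases before to 50 after the start. They were searched on both strands for TGATGNAA, the core of the C/EBP-ATF response element through which ATF4 acts. It was found in 5 of 8 genes of the ATF4 list with a window (Aars, Gars, Iars, Tars, Yars) and in 0 of 19 other synthetases, against 3.97% of 32851 windows of all genes. Stretches with this element are given for these 5 genes and for Asns and Chac1, genes of the same response that were chosen after their values were seen, as the highest ratios among the response genes that hold it. Capitals mark the element, which appears as its reverse complement when it lies on the opposite strand. Positions count the first transcribed base as 1, and sequences run 5′ to 3′ on the strand of the gene. The stretches are Yars at chr4:129189880-129189913 (forward strand, element from 4 to 11), Gars at chr6:55037945-55038000 (forward, -30 to -23), Tars at chr15:11399659-11399699 (reverse, -15 to -8), Iars at chr13:49682111-49682144 (forward, 8 to 15), Aars at chr8:111033704-111033763 (forward, -112 to -105), Asns at chr6:7693210-7693258 (reverse, -23 to -16), and Chac1 at chr2:119351023-119351082 (forward, -193 to -186).
Yars: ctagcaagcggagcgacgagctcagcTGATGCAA
Gars: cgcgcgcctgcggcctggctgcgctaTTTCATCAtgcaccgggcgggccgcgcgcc
Tars: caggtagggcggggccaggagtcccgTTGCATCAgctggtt
Iars: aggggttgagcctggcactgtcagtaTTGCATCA
Aars: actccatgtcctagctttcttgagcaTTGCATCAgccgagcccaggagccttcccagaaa
Asns: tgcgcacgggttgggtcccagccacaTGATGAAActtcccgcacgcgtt
Chac1: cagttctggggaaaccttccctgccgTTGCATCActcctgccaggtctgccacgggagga

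The synthetases with this element did not share a direction on the arrays. Yars, Gars, and Tars held the highest ratios of the cytosolic enzymes (0.79, 0.21, and 0.15), while Iars had -0.18 and Aars, whose window holds a second copy from base 10 to 17, had the lowest cytosolic ratio (-0.30). The FOXO element GTAAACA was searched for in the same way. Its letters were in the windows of Iars2 and Vars2, mitochondrial enzymes with ratios of -0.10 and -0.01, and in 3.65% of all windows. No gene of the family held both motifs. A match is a description of these letters and does not show that a factor binds there.

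The 17 mitochondrial enzymes had a median log2 ratio of -0.24 (quartiles -0.32 and -0.06). Of these, 12 (70.6%) lay below the all-gene median, beside 13 of the 20 cytosolic enzymes (65%). Of the 12, 6 lay below it by more than the scanner error. On its brightest probe, no mitochondrial gene lay above it by more than that error. The 6 genes are 35.3% of this set, beside 27.1% of all detected genes that lay below the median by more than their error. Mars2, which loads methionine, had the lowest ratio, at 83.7 in the FOXO1-Tg pool and 112 in the wild-type pool (log2 ratio -0.54, scanner error 0.22). Its probe is dim, and with normexp and quantile normalization the ratio was -0.24. Cars2, which loads cysteine, had 1379 in the FOXO1-Tg pool and 1833 in the wild-type pool, a log2 ratio of -0.54. The dimmer probe of Cars2 gave -0.20. These genes came close to 1.5-fold lower without passing it.

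Next lowest were Fars2 (phenylalanine) and Rars2 (arginine). Fars2 had 16692 in the FOXO1-Tg pool and 20006 in the wild-type pool, a log2 ratio of -0.39. Rars2 had 5883 in the FOXO1-Tg pool and 7025 in the wild-type pool, also a log2 ratio of -0.39. Both probes are bright, and both ratios lay below the all-gene median by more than the scanner error. Pars2, which loads proline, had 1776 in the FOXO1-Tg pool and 2021 in the wild-type pool, a log2 ratio of -0.32. Its second probe, with signals of 27.9 in the FOXO1-Tg pool and 48.8 in the wild-type pool, gave -0.94, so that the median over both probes (-0.63) would place Pars2 past 1.5-fold. Yars2, Sars2, Aars2, and Tars2 followed between -0.27 and -0.16.

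On their brightest probes, the remaining mitochondrial genes lay close to the all-gene median or above it. Iars2, Lars2, and Wars2 had log2 ratios of -0.10, -0.09, and -0.06. Vars2 had -0.01. The dimmer second probes gave -0.28 for Iars2, 0.15 for Wars2, and 0.22 for Vars2. Those of Iars2 and Vars2 lay farther from the all-gene median than the scanner error, in opposite directions. Hars2 had -0.00. Hars2 and its cytosolic counterpart Hars (-0.07), which are next to each other in the gene table, thus had similar ratios. Ears2, which loads glutamate, had 1500 in the FOXO1-Tg pool and 1253 in the wild-type pool, a log2 ratio of 0.13. Nars2 (asparagine) was the only member detected on 1 array only. Its signal was 19.4 in the FOXO1-Tg pool and 14.2 in the wild-type pool, where it was not well above background. The measured log2 ratio was 0.32 (scanner error 0.56), but set against the lowest signal well above background in the wild-type pool (17.5) it is only 0.01 or more, so a difference in Nars2 was not detectable at this signal.

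Of the 37 genes, 8 were read by a pair of probes detected on both arrays. The gap between their ratios was 0.19 at the median and ranged from 0.02 for Farsa to 0.62 for Pars2. Over all 4048 genes with more than 1 such probe, the median gap between the lowest and highest ratio was 0.17. Cars2 and Vars2 had gaps of 0.34 and 0.23. The spread between probes of a gene was thus of the same order as most ratios of the family. The other 29 genes were read by 1 probe with 1 spot each.

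Cytosolic and mitochondrial enzymes were then compared directly. The median of the cytosolic enzymes minus that of the mitochondrial enzymes was 0.13 on the log2 scale, and it was 0.12 to 0.18 under all alternatives. The quartile ranges of both sets overlap, and with 1 array per pool no test was possible. Where the enzymes for the same amino acid were set side by side, the cytosolic gene had the higher ratio in 12 of 18 pairs (Eprs and Fars2 each stand in a pair of them), with a median difference of 0.14. The difference exceeded the combined scanner error (the errors of both genes in quadrature, taken once) in 6 pairs, all with the cytosolic gene higher. How often pairs of other genes pass this limit was not examined, so the count has no background beside it.

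The widest gap was that for tyrosine, 1.06 between Yars (0.79) and Yars2 (-0.27), which rests on the dim Yars probe. Methionine followed with 0.49 between Mars1 (-0.05) and Mars2 (-0.54), and cysteine with 0.45 between Cars (-0.09) and Cars2 (-0.54). The methionine pair rests on the dim Mars2 probe, and its difference was 0.22 with normexp and quantile normalization, within the combined error of 0.30. That of the cysteine pair was 0.28 with the median over probes, within its combined error of 0.29. The other pairs past the combined error were proline (0.36), serine (0.33), and threonine (0.30). Sars had 18712 in the FOXO1-Tg pool and 16104 in the wild-type pool, and Sars2 had 1158 in the FOXO1-Tg pool and 1256 in the wild-type pool. In the opposite direction, Vars lay below Vars2 (difference -0.18), which is within the combined error of 0.29 but was -0.30 with the median over probes. The measured difference of Nars and Nars2 was -0.45, but at the bound of Nars2, which was not well above background in the wild-type pool, it is -0.15. The measured difference passed the combined error with quantile normalization and with loess (-0.79 and -0.75). For leucine, tryptophan, alanine, histidine, isoleucine, and glutamate the difference was below 0.1 in size.

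**Figure D3:**
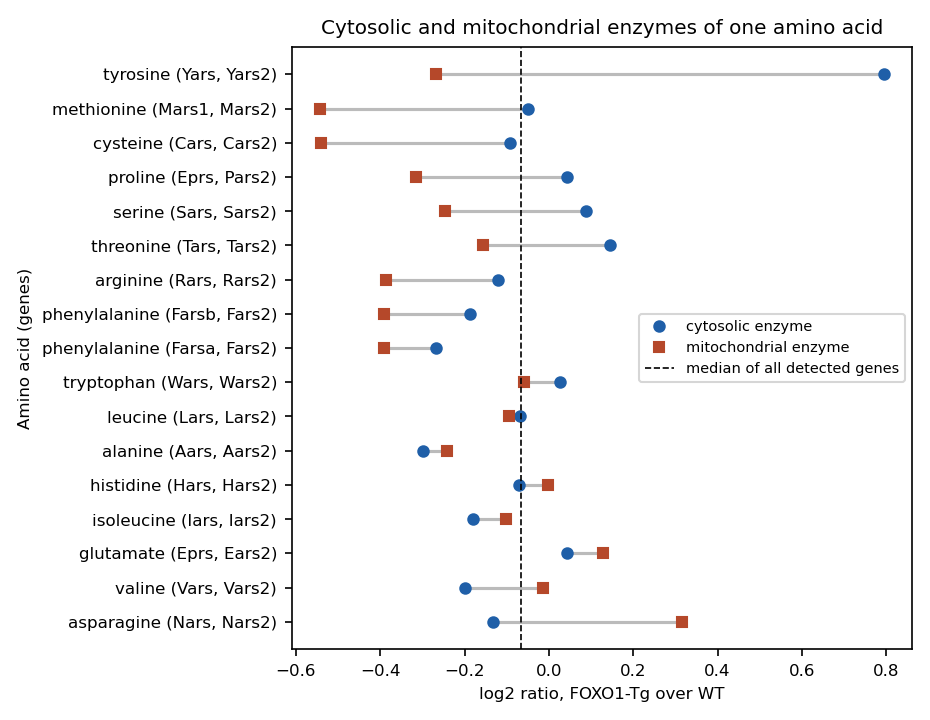
Log2 ratios (FOXO1-Tg over wild-type) of the cytosolic (circles) and mitochondrial (squares) enzymes for the same amino acid in 17 of the 18 pairs, joined by a line and ordered by their difference. The dashed line is the median of all detected genes at -0.07; the cytosolic gene is to the right in most pairs, with tyrosine (difference 1.06) at the top. The place of asparagine at the bottom rests on the measured value of Nars2, which was not well above background in the wild-type pool; at its bound the difference is -0.15, next to valine at -0.18.

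Synthetases fall into structural classes that bind ATP in different folds. Their medians are given within each compartment, and the differences were not tested. Cytosolic medians were -0.08 for the 10 class I genes and -0.14 for the 10 class II genes. Mitochondrial medians were -0.10 for the 9 class I genes and -0.24 for the 8 class II genes. The lowest mitochondrial ratio of class I, Mars2 at -0.54, was below the lowest of class II, Fars2 at -0.39, although the class II median was lower.

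Partners of the mitochondrial enzymes were examined next, and all 4 lay farther from the all-gene median than the scanner error, as did 55.9% of all detected genes. Mitochondria lack a synthetase for glutamine and make its loaded transfer RNA with the amidotransferase GatCAB. Its subunit genes Qrsl1, Gatc, and Gatb had log2 ratios of -0.46, -0.34, and -0.29. Qrsl1 had 1958 in the FOXO1-Tg pool and 2457 in the wild-type pool. Mtfmt, which formylates the initiator methionine, differed from them, with 3510 in the FOXO1-Tg pool and 2680 in the wild-type pool, a log2 ratio of 0.26. Mitochondrial translation factors (9 genes) had a median of -0.24, with Gfm1, an elongation factor, lowest at -0.38 and the initiation factor genes Mtif2 and Mtif3 highest at 0.02. None of these 13 genes passed 1.5-fold.

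Other genes of the amino acid response spread far more widely than the synthetases. Of 24 listed genes 22 were detected, with a median of 0.15. More than 2-fold higher were 3 of them and none was more than 2-fold lower, beside the background of 4.2% and 3.86% given above. Chac1, a glutathione-degrading enzyme, had 116037 in the FOXO1-Tg pool and 31671 in the wild-type pool (log2 ratio 1.74, scanner error 0.20). Phgdh, the first enzyme of serine synthesis, had 1482 in the FOXO1-Tg pool and 451 in the wild-type pool, a log2 ratio of 1.59, and 1.67 with its second probe. Psat1, the next enzyme of that pathway, had 1145 in the FOXO1-Tg pool and 417 in the wild-type pool, a log2 ratio of 1.33, but its second, dim probe gave 0.12. Psph, a later enzyme of the same pathway, had 3809 in the FOXO1-Tg pool and 4118 in the wild-type pool, a log2 ratio of -0.24. Psph thus did not share the higher ratios of Phgdh and Psat1, but it lay below the all-gene median by less than the scanner error. The serine-loading enzyme Sars had 0.09. Chac1 stands in the study's own list of raised genes, so its place here is not independent.

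Past 1.5-fold were also Asns, which makes asparagine, and Eif4ebp1, an inhibitor of translation initiation. Asns had 1323 in the FOXO1-Tg pool and 685 in the wild-type pool, a log2 ratio of 0.82, while Nars, which loads asparagine, had 8572 in the FOXO1-Tg pool and 8597 in the wild-type pool, a log2 ratio of -0.13. Eif4ebp1 had a log2 ratio of 0.62. Atf4 itself had 172364 in the FOXO1-Tg pool and 141889 in the wild-type pool, a log2 ratio of 0.15. It lay above the all-gene median by slightly more than the scanner error, as Tars did. The lowest genes of this list were the leucine transporter subunit gene Slc7a5 at -0.58, whose second probe gave 0.10, and Ddit3 at -0.36. Other detected genes of this list whose promoter window holds the response element were Nupr1 at 0.55, Trib3 at 0.43, Atf3 at 0.11, and Vldlr at 0.09, so the genes with the element overlapped in their ratios with Yars, Gars, and Tars.

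**Figure D4:**
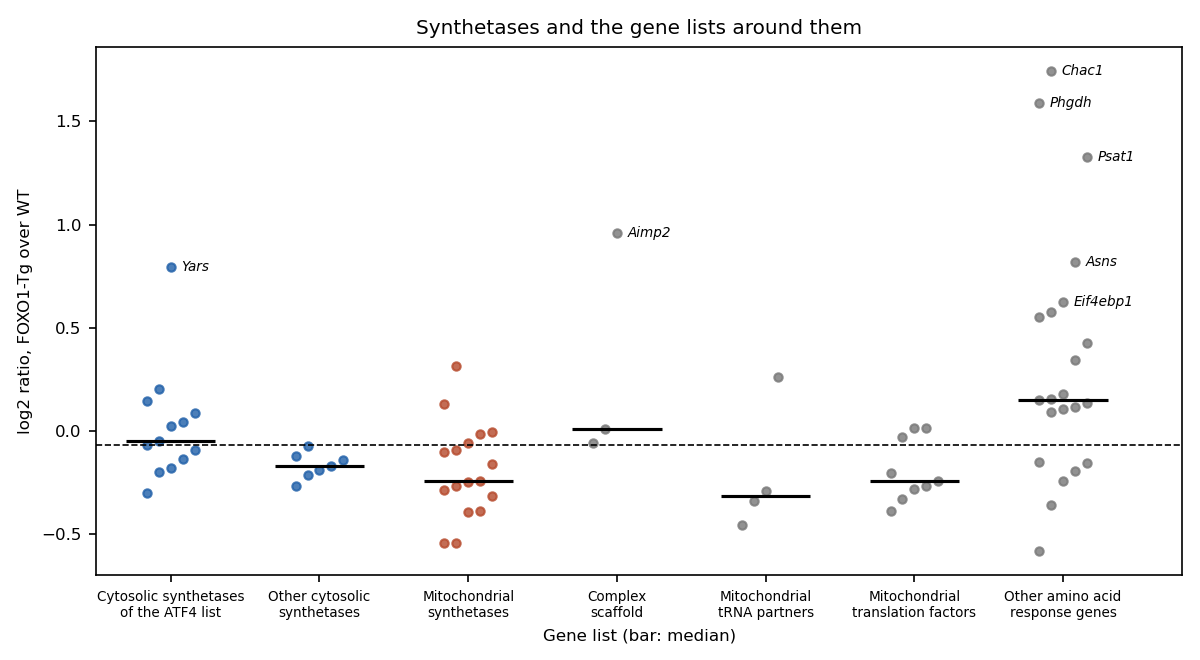
Log2 ratio of each detected gene (FOXO1-Tg over wild-type) in the 3 sets of synthetases (colored) and the 4 lists around them (gray), with the median of each list as a bar and that of all detected genes as a dashed line at -0.07. Genes past 1.5-fold are named; Yars is the only one among the synthetases, while Chac1, Phgdh, and Psat1 lie above 1.

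Markers of adipocytes and of Schwann cells and nerve had far higher ratios than the synthetases. All 10 muscle fiber markers were detected on both arrays, with a median log2 ratio of -0.14 and a summed signal of 4149640 in the FOXO1-Tg pool and 4131920 in the wild-type pool. All 10 adipocyte markers were higher than the all-gene median (8 of them more than 2-fold higher), with a median of 1.89 and a summed signal of 307319 in the FOXO1-Tg pool and 103880 in the wild-type pool. Medians were 1.06 for 9 Schwann cell and nerve markers, 0.46 for 10 fibroblast markers, 0.31 for 10 macrophage markers, and -0.23 for 10 endothelial markers. Of 10 keratinocyte markers, the 6 detected on both arrays went both ways, between -0.41 (Trp63) and 4.94 (Lor), and the other 4 were detected on 1 array only. In whole muscle, fewer cells of a type and less RNA per cell cannot be told apart, and the part of these cells in the synthetase ratios was not tested.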

How the data were processed

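Pooled gastrocnemius RNA of each genotype was labeled with cyanine 3 and measured on 1 Agilent mouse genome array. The authors deposited intensity values, which are background-subtracted processed signals of Agilent Feature Extraction (11.0.1.1 per the file headers, 9.5 per the submitters' processing notes), without scaling between arrays. The deposited value table held the same signals (largest difference 0). Flags for detection and outliers (other columns, per the file headers) were set by the same software.

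Signals of the 59305 non-control spots were taken to log2 after division by the 75th percentile of each array. Outlier spots of either array (237) were dropped, spots of a probe were averaged, and detection required 50% or more of a probe's spots to be well above background. On the arrays, 65.8% (FOXO1-Tg) and 65.5% (wild-type) of spots were well above background, and 0 were saturated. Probes were named through their unversioned RefSeq transcripts in a gene table of GRCm38.p6 (28323 of 55670 probes). The array was designed on mm9, so no probe position was used. A gene took the value of its brightest detected probe. A probe detected on 1 array was called by its bound, against the higher of its own value and the lowest signal well above background on the other array (14.6 for the FOXO1-Tg pool, 17.5 for the wild-type pool).

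Because each group has 1 array, no test was made, and genes were counted past 2-fold and 1.5-fold. The scanner's errors of both signals were combined in quadrature; over 293 probes with at least 8 spots, the median SD of the ratio between spots was 0.05 on the log2 scale. The members and gene lists were chosen with earlier results of these data known. Values of 1 mitochondrial member are not reported here, although it stays in the counts and medians. The other synthetases could be named in the text, and of the other lists the 2 highest and 2 lowest detected genes, Atf4, and Foxo1; Sars beside Phgdh, Nars beside Asns, and some further list members were chosen after their values were seen. Alternatives were scaling to the median, quantile normalization, no scaling, loess, normexp (offset 50, on median spot signals) with quantile normalization, the value table, detection on both arrays, no filter, the median over probes, and outliers kept. The procedure was tested on simulated data with the scanner error as the only noise. Its pass condition concerned the 2-fold call, so it does not bear on ratios as small as those of the members. Python 3.11.15 (numpy 2.4.6, pandas 2.3.3, matplotlib 3.10.9) and R 4.3.3 with limma 3.58.1 were used.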

Additional observations from a re-analysis of the deposited data

How the results depend on the processing

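No paired analysis was possible because there is a single pool per genotype, which also means that none could be left out. Of 369 member ratios under the 10 alternatives, 366 stayed within the scanner error of the value reported. The exceptions were Mars2 (-0.24) and Yars (0.31) with normexp and quantile normalization, and Pars2 (-0.63) with the median over its probes. Members more than 1.5-fold higher therefore numbered 0 with normexp and quantile normalization, and members more than 1.5-fold lower numbered 1 with the median over probes. Much of the count of 366 was fixed by the settings themselves. The value table holds the same signals, and changing the filter or keeping outliers left the member ratios unchanged. Scaling to the median and no scaling shifted all ratios alike, by 0.11 and 0.13, which is less than the scanner error. No member passed 2-fold under any of the 10 alternatives. A change of sign was looked for only in members past 1.5-fold, which left Yars alone, and its ratio stayed above 0. Members nearer to 0 did change sign, such as Cars, from -0.09 to 0.04 with no scaling. The scaling moved the median of all genes by up to 0.13 (to 0.06 with no scaling), so the number of members with a ratio above 0, which was 8, was 18 with no scaling and 17 with scaling to the median. Cytosolic medians ranged from -0.11 to 0.02 and mitochondrial medians from -0.24 to -0.11. Over all genes, 700 exceeded 2-fold upward and 643 downward. These numbers were 408 and 213 with normexp, 1020 and 1737 without the filter for detection, 891 and 417 with loess, and 529 and 397 with detection on both arrays. Mars2, Yars, Nars2, and the second probe of Pars2 are limited by dim signals.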

Other observations

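Genes that resemble synthetases or correct their errors were also on the arrays. Tarsl2, which encodes a threonyl-tRNA synthetase-like enzyme and falls outside the naming rule, gave 12216 in the FOXO1-Tg pool and 16580 in the wild-type pool. Its log2 ratio was -0.57 (scanner error 0.20), close to those of Mars2 and Cars2 (-0.54 each), and it did not pass 1.5-fold. Tars, the cytosolic enzyme for the same amino acid, had 0.15, and the mitochondrial enzyme Tars2 had -0.16. Aarsd1, an editing protein for mischarged alanine transfer RNA, had 12959 in the FOXO1-Tg pool and 14265 in the wild-type pool, a log2 ratio of -0.27, close to that of Aars. Prorsd1 had 0.09, while Dtd1 and Dtd2, genes of D-aminoacyl-tRNA deacylases, had -0.13 and -0.16. No replicate exists for any of these values, and no test was made.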
